A study of Mus musculus with 8 samples.

Results

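Long intergenic non-coding RNAs (lincRNAs) are spliced or single-exon transcripts that lie between protein-coding genes and have no long open reading frame. Some stay in the nucleus and scaffold ribonucleoprotein bodies or act on chromatin, some are imprinted, and some serve mainly as hosts from which microRNAs (miRNAs) or small nucleolar RNAs (snoRNAs) are cut. Others start at the promoter of a coding gene and are transcribed away from it, and their levels often follow that gene. Known examples in pancreatic islets are Meg3 and transcripts beside islet transcription factor genes, such as Paupar.

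The lincRNAs described here are the rows of the deposited gene table that carry the biotype lincRNA and whose mean over the 8 read count columns was at least 20. They were selected on that mean read count. The rule took in 297 of 1835 lincRNA rows, out of 27534 genes in the table. The mean count that selected them spans both groups, so their levels are given as a description, and only the difference between the groups was tested. Just inside the threshold stood CT025659.2, Gm16702 and Gm26606, each with a mean of 20.0 reads, and just outside it stood 4732414G09Rik, Gm44066 and Platr26, each with a mean of 19.875 reads.

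Islets of C57BL/6J mice were kept for 72 h in RPMI medium with serum at 20 mM glucose (high glucose) or at 7.5 mM glucose (low glucose), with 4 bulk RNA-seq libraries per group. The series concerns β-cell compensation and the stress sensor IRE1α, but no allele, age or sex is given for these samples and glucose was the only labelled difference. Nothing in the labels says how many animals gave islets to a library, so the p-values measure the spread between these libraries, which may be partly technical. Libraries held 19543045 to 24949515 counted reads, so that 3 reads, the upper limit that a count of 0 allows, corresponded to 0.114 to 0.161 CPM, the count scaled to a common library total, counting error only.

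The labelled tissue carried its markers: 10 β-cell markers summed to between 208000 and 274200 CPM in high and between 187400 and 267800 CPM in low glucose. Marker sums of several other cell types differed between the groups. The acinar sum was 4605 to 23750 CPM in high and 1633 to 13610 CPM in low glucose, and it was higher in high glucose in 4 of 4 same-numbered pairs. Duct markers summed to 580 to 602 CPM in high and 446 to 562 CPM in low glucose, and fibroblast markers to 181 to 1216 and 148 to 360 CPM. Delta-cell markers summed to 2498 to 4177 and 1579 to 3082 CPM. Lymphocyte markers were lower in high glucose in 4 of 4 pairs (4.04 to 9.67 against 9.22 to 12.2 CPM), and Schwann and neural markers were higher in 4 of 4 (30.1 to 43.4 against 18.7 to 36.3 CPM). Sums for alpha cells, PP cells and macrophages were higher in high glucose in 1 of 4 pairs each. Their part in the lincRNA results was not tested beyond an added fit with the acinar sum as a covariate, in which 31 of the 34 higher and 36 of the 45 lower calls below remained. In bulk islets, fewer cells of a type and less RNA per cell cannot be told apart.

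High glucose was accompanied by change in both directions. Of 297 lincRNAs, 34 rose and 45 fell, at an adjusted p under 0.05 from edgeR's quasi-likelihood test with Benjamini-Hochberg adjustment over all 15442 genes tested, and 218 were not called. These are 11.4% higher and 15.2% lower, beside 13.1% higher and 11.9% lower among all genes tested. The 2 directions together came to 26.6% of lincRNAs and 25.0% of all genes, so lincRNAs were called about as often as the background. In simulated counts with far fewer changed genes, a 2-fold change was recovered for 7 of 30 lincRNAs and 32 of 37 other genes. At 1.5-fold it was 1 of 30 and 9 of 37, and at 4-fold 25 of 30 and 31 of 36. Near-equal shares called therefore do not show that near-equal shares changed. Groups of 4 and 4 libraries did not overlap for 89 lincRNAs (30.0%) and for 27.3% of all genes. With the replicate number as a block, 45 lincRNAs were higher and 57 lower, while all genes came to 2917 higher and 2862 lower, against 2023 and 1831 without it. Scaling by library size alone gave 1602 higher and 2636 lower over all genes and 32 higher and 59 lower among lincRNAs. Of the calls, 20 of 34 increases and 24 of 45 decreases held in each of 15 alternative fits, and none of the 79 changed sign.

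The median log2 difference (high over low glucose) was −0.16 over the lincRNAs and −0.01 over all genes tested, with 181 lincRNAs below 0 and 116 above it. Increases reached further than decreases: 22 called lincRNAs rose and 14 fell by at least 2-fold, beside 534 and 203 among all genes tested. Of these lincRNAs, 17 that rose and 9 that fell had a mean of 20 to 50 reads. Other non-coding classes at the same read threshold had medians of −0.16 (242 antisense genes, 16.5% called), −0.09 (165 processed transcripts, 16.4% called) and −0.26 (59 bidirectional-promoter RNAs, 20.3% called). The 127 genes of the biotype TEC, whose transcripts await experimental proof, had a median of −0.24 with 10.2% called. Protein-coding genes had a median of −0.01 with 27.7% of 12902 called. Among genes with a mean of 20 to 50 reads, 23.4% of lincRNAs and 15% of protein-coding genes were called. At 50 to 200 reads the shares were 29.1% and 20.8%, and at 200 reads or more 30.4% and 31.1%. The split by direction also changed with abundance: 20 lincRNAs rose and 13 fell among the 141 with 20 to 50 reads, and 4 rose and 10 fell among the 46 with 200 reads or more. Protein-coding genes shifted too: 124 rose and 53 fell among 1179 with 20 to 50 reads. At 200 reads or more, 1436 rose and 1463 fell among 9310 protein-coding genes. None of these differences between classes was tested.

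**Figure D1:**
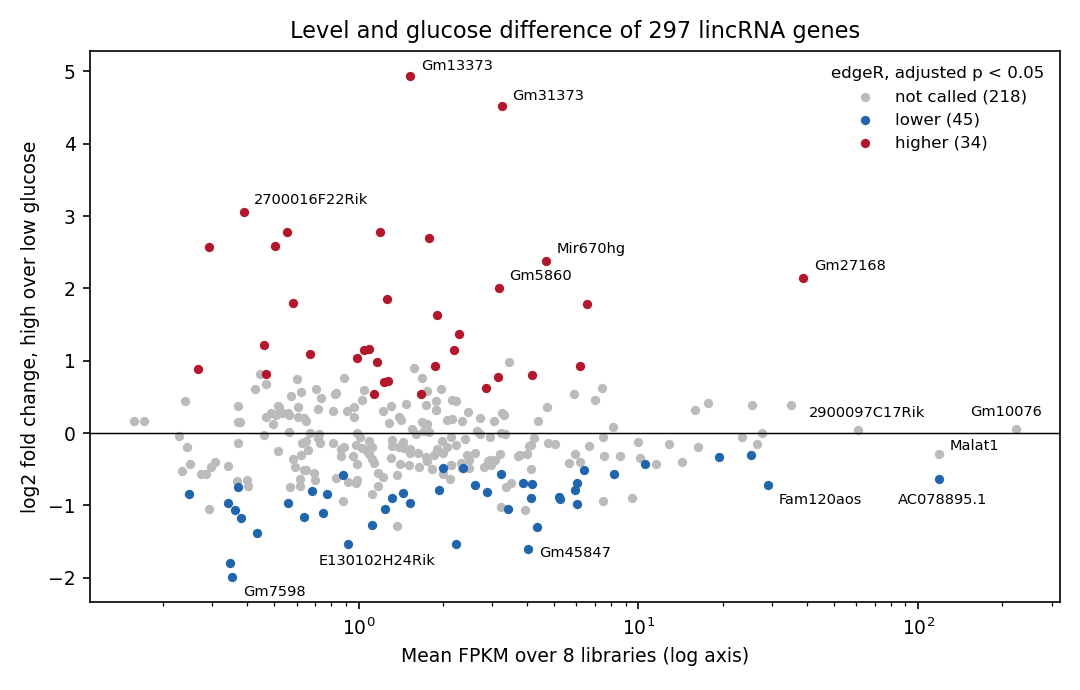
Mean level of each of the 297 lincRNAs (x axis, FPKM on a log scale, mean of 8 libraries) against its log2 difference between high and low glucose (y axis, edgeR), coloured by call. Points called higher reach larger differences than points called lower, and Malat1 and 2900097C17Rik, at 119 and 61.1 FPKM, lie at −0.29 and 0.05.

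Most of these transcripts were scarce. Their median level was 1.51 FPKM (fragments per unit of gene length and library total), 107 lay under 1 FPKM and 21 at 10 FPKM or more. The 4 with most reads, Malat1, Meg3, 2900097C17Rik and Neat1, took 50% of all lincRNA reads. By name, 142 carry a provisional Gm number, 105 a RIKEN clone name, 17 a clone accession and 33 another symbol, and 32 lie on chromosome 5.

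Malat1, the RNA of nuclear speckles (chromosome 19, 5795690 to 5802672, minus strand, GRCm38; 119 FPKM), was not called. It stood at 793, 570, 767 and 908 CPM in high glucose replicates 1 to 4. In low glucose replicates 1 to 4 it stood at 1294, 256, 1221 and 938 CPM. The groups overlapped because low glucose replicate 2 held far less Malat1 than any other library. The means were 760 ± 140 and 927 ± 473 CPM (SD, n = 4 each), with a log2 difference of −0.29 ± 0.39 (SE) and an edgeR adjusted p of 0.636. Without low glucose replicate 2 the log2 difference was −0.60 with an adjusted p of 0.0141, and without both libraries numbered 2 it was −0.48 with an adjusted p of 0.0142. Over the 15 alternative fits the adjusted p ran from 0.0141 to 0.938.

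Meg3, the maternally expressed RNA of the imprinted Dlk1-Dio3 locus (chromosome 12, 109541001 to 109571726), varied in a like manner. It stood at 395, 426, 455 and 578 CPM in high glucose and at 764, 233, 651 and 409 CPM in low glucose, with an edgeR adjusted p of 0.761. Low glucose replicate 2 was again the lowest of all 8 libraries, while low glucose replicate 1 was the highest. Neat1, the scaffold of paraspeckles (chromosome 19, 5824708 to 5845478), stood at 200, 276, 252 and 302 CPM in high and 384, 195, 336 and 229 CPM in low glucose, with an edgeR adjusted p of 0.641. The 2 Neat1 groups overlapped as well. Against these, 2900097C17Rik, the mouse counterpart of NORAD, which binds Pumilio proteins, was steady at 290 to 324 CPM in high and 285 to 315 CPM in low glucose. Its log2 difference was 0.05 ± 0.07 (SE). Reads of 2900097C17Rik may be shared with its near-identical copy Gm7292, and those of Meg3 with Gm27000.

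**Figure D2:**
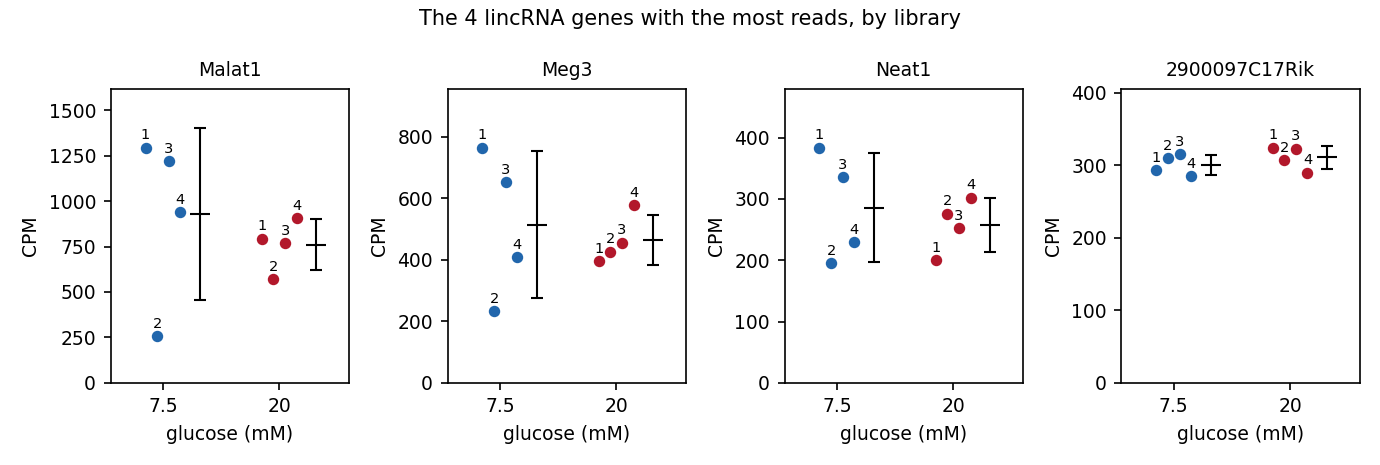
CPM of the 4 lincRNAs with most reads (y axis) in each high and low glucose library (points, numbered by replicate; bars, mean ± SD of 4 libraries). Low glucose replicate 2 is lowest for Malat1, Meg3 and Neat1, at 256, 233 and 195 CPM, while 2900097C17Rik stays between 285 and 324 CPM in all 8 libraries.

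All lincRNAs together made up 0.330% to 0.393% of counts in high and 0.295% to 0.513% in low glucose libraries. Without Malat1 and Meg3 the share was 0.226% to 0.245% in high and 0.249% to 0.296% in low glucose, and the 2 ranges did not overlap. These are shares of raw library totals. With scaling by library size alone, the median log2 difference over all genes tested was itself −0.09, against −0.01 in the main fit.

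Genes for proteins that work with these RNAs included calls in both directions. Of 18 tested paraspeckle protein genes, 1 rose, Taf15 (1.20-fold), and 3 fell, Hnrnph3 and Pspc1 among them (1.40-fold and 1.30-fold). Of 20 tested genes of the nuclear RNA exosome and its adaptors, which degrade many unstable non-coding transcripts, Tent4a fell (1.16-fold) and none rose, beside 25.0% called among all genes tested. None of 19 nonsense-mediated decay factors was called by edgeR, and the smallest adjusted p was 0.0600, for Eif4a3. A list of nuclear and chromosome-associated non-coding genes of any biotype, Malat1 and Neat1 included, gave 1 call among 9 tested, beside the same 25.0% of all genes. Of this list, 6 are lincRNAs of this set. The call fell on a lincRNA. This was 2610035D17Rik, which fell 1.65-fold (4.24 ± 0.504 against 7.03 ± 1.53 CPM, SD, n = 4, edgeR adjusted p = 0.0164). That call was lost without low glucose replicate 4 and without both libraries numbered 2, and its adjusted p ran from 0.00265 to 0.0621 over the alternative fits.

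On the X chromosome, Jpx and Ftx, 2 genes of the X-inactivation centre, were not called. Jpx stood at 2.02 to 2.64 CPM in high and 2.46 to 4.36 CPM in low glucose, with an edgeR adjusted p of 0.0510 and of 0.0400 with the replicate block (0.00841 to 0.142 over the alternative fits). Ftx had an edgeR adjusted p of 0.332, and 0.0484 without low glucose replicate 2 (0.0484 to 0.716 over the alternative fits). Both genes were chosen after their values were seen. Xist, which coats the inactive X chromosome, lay under the read threshold with 1 to 11 reads per library. Also under it were H19, Miat, Mir17hg and Pvt1, with mean counts of 2.4, 2.4, 4.9 and 19.75.

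The largest increases came from transcripts that were close to absent in low glucose. Transcripts so scarce in low glucose passed the read threshold only through their high glucose reads, so this pattern partly follows from the selection rule. Gm31373 (chromosome 1, 190992692 to 190994677) stood at 3.42, 4.68, 5.14 and 5.38 CPM in high glucose and at 0.152, 0.321, 0.189 and 0.144 CPM in low glucose. Every high glucose library was above every low glucose library, and the fitted difference was 23.0-fold (edgeR adjusted p = 7.35e-06). Low glucose replicate 4 lay at its floor of 0.144 CPM, and no low glucose value passed 0.321 CPM. The size of this fold is therefore uncertain. Gm13373 (chromosome 2, 28315016 to 28324050) stood at 1.59, 3.12, 1.98 and 1.17 CPM in high glucose and at 0, 0.107, 0.0473 and 0.0960 CPM in low glucose. The low glucose values rest on 0 to 2 reads per library, at or under the floor, so no fold is given (edgeR adjusted p = 0.000199).

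C230024C17Rik (chromosome 1, 153721240 to 153737829) stood at 3.46, 1.30, 4.29 and 4.04 CPM in high and 0.341, 0.107, 0.521 and 0.912 CPM in low glucose. High glucose replicate 2 was the lowest of its group but stayed above all low glucose libraries, and the difference was 6.89-fold (edgeR adjusted p = 0.00294). Low glucose replicate 2 lay under its floor of 0.161 CPM, so the size of this fold is uncertain. AC154438.1 (chromosome 16, 29750810 to 29754312) rose 6.84-fold, from 0.786 ± 0.303 to 5.35 ± 0.368 CPM (SD, n = 4 each). Gm34225, Gm19510 and 3930402G23Rik rose 6.50-fold, 6.00-fold and 5.95-fold from means of 0.384, 0.266 and 0.282 CPM. These means lie not far above the floor of 0.114 to 0.161 CPM.

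2700016F22Rik (chromosome 4, 139376549 to 139380379) rose 8.31-fold, with 2.06 to 3.22 CPM in high and 0.161 to 0.568 CPM in low glucose. The lowest of these values is no higher than the top of the floor range, so the size of the fold is uncertain. Its span overlaps 2 coding genes, and 54.3% of its exon bases are shared with exons of another gene, Emc1, a subunit of the complex that inserts proteins into the endoplasmic reticulum (ER) membrane. Emc1 itself stood at 29.5 and 31.8 CPM in high and low glucose (edgeR adjusted p = 0.398). Without a known strand setting, reads of overlapping genes cannot be told apart.

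The most abundant of the strong increases was Gm27168 (chromosome 8, 86920477 to 86921147; 38.9 FPKM). It stood at 15.8, 35.9, 19.8 and 21.3 CPM in high and 4.09, 7.50, 3.83 and 5.67 CPM in low glucose, a 4.42-fold difference (edgeR adjusted p = 0.000378). Replicate 2 was the highest library in both groups. Gm5860, AI839979 and 5330439M10Rik, chosen after their values were seen, rose 4.00-fold, 3.60-fold and 3.43-fold. Of these, Gm5860 stood at 10.1 to 15.6 CPM in high and 3.26 to 3.69 CPM in low glucose.

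Decreases were smaller. Gm7598 (chromosome X, 38476461 to 38482486) fell 3.98-fold, from 1.81 ± 0.592 to 0.449 ± 0.0950 CPM (SD, n = 4 each; edgeR adjusted p = 0.00149). Gm48945 fell 3.46-fold, but 5 of 15 alternative fits did not call it. Gm45847 (chromosome 7, 123031415 to 123068305) stood at 3.32, 4.99, 4.67 and 3.88 CPM in high and 10.7, 13.9, 14.3 and 12.3 CPM in low glucose. Its groups lay far apart, and it fell 3.04-fold (edgeR adjusted p = 7.01e-05). Gm26614, Gm44899, Gm46404, 5330413P13Rik and Gm45218 fell 2.61-fold, 2.46-fold, 2.42-fold, 2.23-fold and 2.15-fold. Of the exon bases of Gm44899, 53.9% are shared with the pseudogene Gm18782. Gm16702 fell 2.26-fold and overlaps T2 on the opposite strand. T2 fell 7.12-fold, from 22.9 to 3.22 CPM, and the read origin cannot be told apart.

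**Figure D3:**
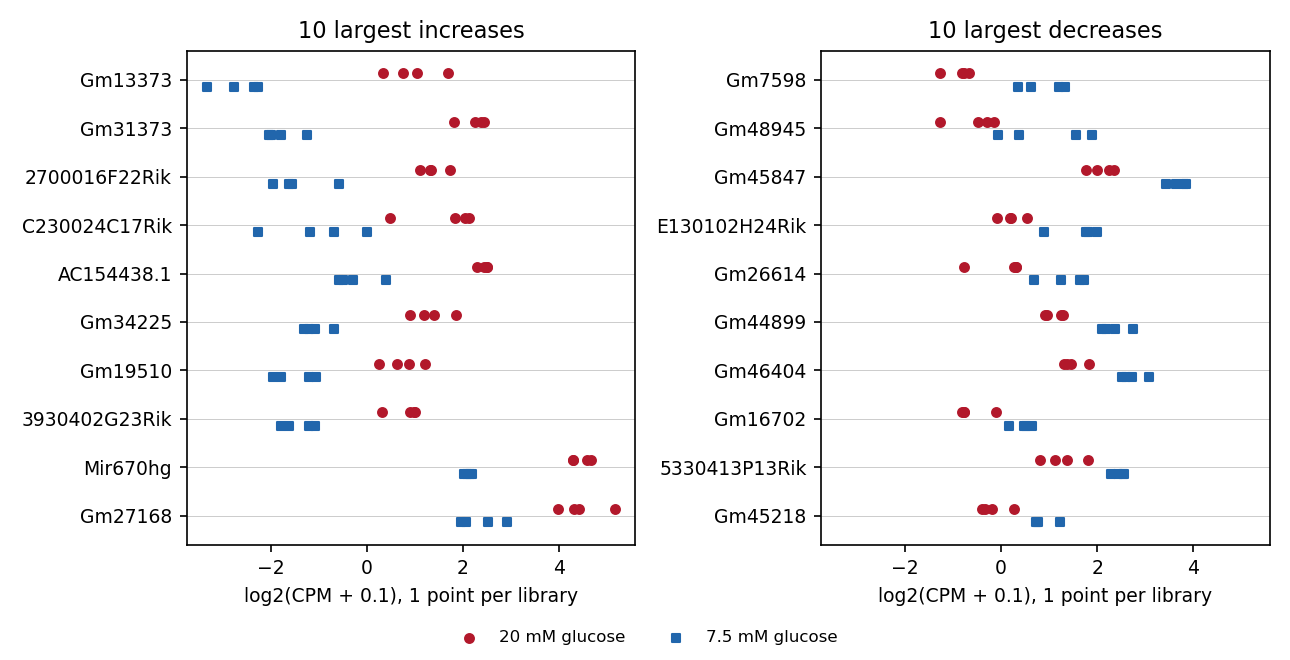
The 10 largest increases and the 10 largest decreases among called lincRNAs whose groups do not overlap, as log2(CPM + 0.1) in each library (1 point per library). The increases start from low glucose levels near or under 1 CPM, except Mir670hg and Gm27168, whose low glucose means are 4.24 and 5.27 CPM. Transcripts near or under 1 CPM in low glucose passed the read threshold through their high glucose reads.

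Several abundant lincRNAs fell. AC078895.1 (chromosome 16, 17833121 to 17835008; 119 FPKM) stood at 139, 171, 171 and 150 CPM in high and 247, 259, 249 and 221 CPM in low glucose. It fell 1.55-fold with no overlap of the groups (edgeR adjusted p = 0.000630). GENCODE M21 lists it as protein-coding, as it does 6330403K07Rik. Fam120aos (chromosome 13, 48968287 to 48972031; 29.0 FPKM), which starts beside Fam120a on the other strand, stood at 37.9, 45.2, 38.1 and 37.9 CPM in high and 63.9, 80.7, 59.7 and 58.1 CPM in low glucose. It fell 1.65-fold (edgeR adjusted p = 0.000989), while Fam120a stood at 279 and 290 CPM (edgeR adjusted p = 0.613). 5031425E22Rik, chosen after its values were seen, fell 1.42-fold, and its divergent neighbour Kmt2e, a histone-reading chromatin protein, was not called (edgeR adjusted p = 0.526). Also among the transcripts with the highest FPKM, Gm10076 and Gm3924 were not called. Gm10076, which resembles the ribosomal protein gene Rpl41, stood at 75.9 to 105 CPM in high and 72.6 to 111 CPM in low glucose, while Gm3924 had means of 17.1 and 17.2 CPM.

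Some of these genes are hosts of small RNAs. Of the 297 lincRNAs, 15 hold 43 miRNA genes and 7 hold 11 snoRNA or small Cajal body RNA genes, 19 in all. Of these 19 hosts, 4 rose and 2 fell (31.6%, beside 25.0% of all genes). Mature miRNAs and snoRNAs were not measured, and a host transcript level does not give the level of the small RNA cut from it.

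Some miRNAs of the called hosts are shown with their seeds, because the seed sets which targets a miRNA can pair with, and 2 separate hosts carry the same mature miRNA. Of Mirg only miR-410-3p is shown, beside miR-344d-3p of a host that was not called, because the pair shares a seed. Sequences are from RefSeq (GRCm38.p6), 5′ to 3′, with bases 2 to 8, the seed, in capitals.
mmu-miR-129-5p (Mir670hg and Gm3294): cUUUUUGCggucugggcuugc
mmu-miR-129-2-3p (Mir670hg): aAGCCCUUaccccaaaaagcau
mmu-miR-670-5p (Mir670hg): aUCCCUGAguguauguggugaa
mmu-miR-670-3p (Mir670hg): uUUCCUCAuauccauucaggagugu
mmu-miR-410-3p (Mirg): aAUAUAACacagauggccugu
mmu-miR-344d-3p (A230057D06Rik): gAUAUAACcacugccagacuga
mmu-miR-101a-3p (E130102H24Rik): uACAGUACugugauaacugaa
mmu-miR-101a-5p (E130102H24Rik): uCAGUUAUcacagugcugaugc
mmu-miR-6516-5p (Snhg20): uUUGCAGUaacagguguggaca

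The hairpins of Mir129-1 and Mir129-2 show how the same 5′ arm sits in different precursors. Here the capitals mark the mature arms listed by RefSeq.
Mir129-1 (chromosome 6, 29022619 to 29022691, plus strand): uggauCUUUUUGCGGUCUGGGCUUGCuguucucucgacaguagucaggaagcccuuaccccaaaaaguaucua
Mir129-2 (chromosome 2, 94241364 to 94241453, minus strand): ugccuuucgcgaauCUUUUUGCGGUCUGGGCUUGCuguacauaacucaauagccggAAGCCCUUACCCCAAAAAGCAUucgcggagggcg

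Both hosts of miR-129-5p rose. Mir670hg (chromosome 2, 94160636 to 94264918, minus strand), which spans Mir129-2 and Mir670, stood at 19.6, 25.3, 24 and 19.4 CPM in high and 3.98, 4.34, 4.17 and 4.47 CPM in low glucose. The low glucose libraries were nearly alike and all high glucose libraries lay far above them. The means were 22.1 ± 3.00 and 4.24 ± 0.211 CPM (SD, n = 4 each), a 5.21-fold increase with a log2 difference of 2.38 ± 0.12 (SE) and an edgeR adjusted p of 1.95e-06. Gm3294 (chromosome 6, 28981634 to 29028922), which has Mir129-1 in an exon and was chosen after its values were seen, stood at 9.48, 11.2, 11.8 and 13 CPM in high and 7.92, 5.52, 8.99 and 5.52 CPM in low glucose. It rose 1.63-fold (edgeR adjusted p = 0.0169) and lost its call without high glucose replicate 4, with an adjusted p of 0.0507 (0.00170 to 0.0507 over the alternative fits).

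Mirg, the host of a miRNA cluster at the imprinted Dlk1-Dio3 locus (chromosome 12, 109729764 to 109749460), holds 14 miRNA genes. It stood at 12.4, 15.9, 15.7 and 14.8 CPM in high and 12.3, 8.78, 10.6 and 8.64 CPM in low glucose. The lowest high glucose library barely exceeded the highest low glucose library, and Mirg rose 1.46-fold (edgeR adjusted p = 0.0162, and 0.00254 to 0.05 over the alternative fits). Mirg was not called without low glucose replicate 4 or without both libraries numbered 2. From the same locus, Dlk1, a membrane protein that inhibits adipocyte differentiation, rose 2.97-fold (edgeR adjusted p = 0.00178), whereas Meg3 and Rian, a processed transcript of the locus, were not called (edgeR adjusted p = 0.761 and 0.141). The seed AUAUAAC of miR-410-3p recurs in miR-344d-3p and miR-344e-3p of A230057D06Rik, which was not called.

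E130102H24Rik (chromosome 4, 101346531 to 101356735) has Mir101a in an exon. It stood at 1.35, 1.04, 0.849 and 1.05 CPM in high and 3.90, 1.77, 3.41 and 3.31 CPM in low glucose. Low glucose replicate 2 was closest to the high glucose libraries without reaching them, and the transcript fell 2.89-fold (edgeR adjusted p = 0.00291). Its nearest coding gene, Ak4, a mitochondrial adenylate kinase that starts 62542 bases away, rose 6.03-fold. 4833445I07Rik, the host of Mir191 and Mir425, had means of 2.26 and 2.03 CPM and was not called (edgeR adjusted p = 0.673).

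Hosts of snoRNAs, the guides for ribosomal RNA modification, included both directions. Snhg18 (chromosome 15, 32240565 to 32244662), host of Snord123, stood at 8.13, 8.11, 8.53 and 7.20 CPM in high and 4.13, 5.78, 4.4 and 3.99 CPM in low glucose. Its groups did not overlap and it rose 1.75-fold (edgeR adjusted p = 0.00316), also in all 15 alternative fits. Snhg20, host of a small Cajal body RNA and of Mir6516, stood at 5.94 to 8.89 CPM in high and 8.59 to 12.6 CPM in low glucose. The groups overlapped, and the 1.47-fold decrease (edgeR adjusted p = 0.0371) was lost in 5 of 15 alternative fits. Snhg6, host of Snord87 and chosen after its values were seen, stood at 7.73 to 13.8 CPM in high and 4.73 to 8.73 CPM in low glucose. Its edgeR adjusted p was 0.0679, and 0.00275 with the replicate block (0.00275 to 0.186 over the alternative fits). Snhg12, with 5 snoRNA genes, was not called (9.49 ± 2.64 against 10.7 ± 1.84 CPM, SD, n = 4; edgeR adjusted p = 0.609). A list of snoRNA host genes of any biotype, which also took in the miRNA host Mir22hg, had 19 tested genes. Of these, Snhg18, Mir22hg and Snhg1 rose and Snhg20 fell, beside 25.0% called among all genes tested. The median log2 difference was −0.02. Of 18 snoRNP proteins, 2 were called, beside 25.0% of all genes tested. These were Nop58 and Nop56, core proteins of box C/D particles, which rose 1.30-fold and 1.22-fold.

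**Figure D4:**
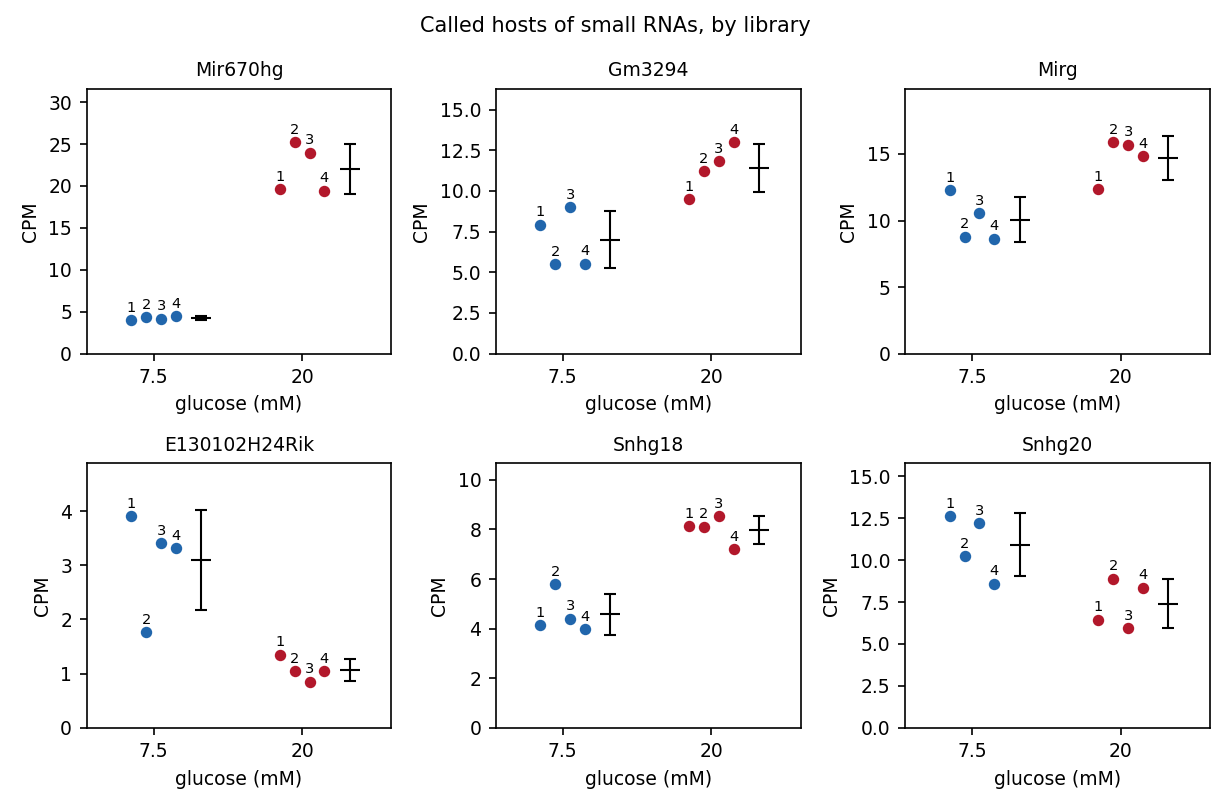
CPM of 6 small RNA hosts (y axis) in each high and low glucose library (points; bars, mean ± SD of 4 libraries). Mir670hg, Gm3294, Mirg and Snhg18 lie higher in high glucose, with means of 22.1, 11.4, 14.7 and 7.99 CPM against 4.24, 6.99, 10.1 and 4.58 CPM, and E130102H24Rik and Snhg20 lie lower.

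A list of non-coding genes of any biotype tied to growth and the response to DNA damage had 7 tested genes, 4 of them lincRNAs of this set. Of the 7, 2 were called, a share near that of all genes. Mir22hg, a processed transcript, rose. Lncpint, a p53-induced RNA, fell 1.95-fold (1.75 ± 0.293 against 3.41 ± 1.32 CPM, SD, n = 4; edgeR adjusted p = 0.0358). The Lncpint call was lost in 8 of 15 alternative fits, with adjusted p from 0.00666 to 0.115. Trp53cor1 (lincRNA-p21), another p53 target, stood at 1.74 to 2.40 CPM in high and 2.64 to 4.07 CPM in low glucose. The groups did not overlap, but the edgeR adjusted p was 0.0852, and 44.1% of its exon bases are shared with AC167363.1. Its coding neighbour Cdkn1a, the cyclin-dependent kinase inhibitor p21, had means of 75.2 and 52.5 CPM (edgeR adjusted p = 0.0653, and 2.71e-05 with the replicate block). Of 4 tested transcripts once listed as lincRNA and now held to encode small peptides, none was called by edgeR. 1810058I24Rik, the lincRNA of this set among them and chosen after its values were seen, had means of 20.7 and 21.6 CPM.

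LincRNAs and their coding neighbours leaned to the same side. Of 158 pairs in which both genes were tested and lay within 5 kb, 111 (70.3%) had log2 differences of the same sign, with Pearson's r = 0.469 and Spearman's rho = 0.34 across pairs. Over 20 kb, 53.7% of 82 pairs had the same sign and r was 0.123. Pairs share their libraries, and overlapping pairs may share reads. Without overlapping pairs the share within 5 kb was 71.5% of 123. By arrangement it was 68.7% of 67 divergent pairs, 72.2% of 18 lincRNAs upstream of the gene on its strand, 87.0% of 23 downstream on its strand and 60.0% of 15 convergent pairs. For the lincRNAs downstream on the same strand, reads past the end of the coding gene could be counted with either gene, and this was not tested. Both genes were called in 17 of the 158 pairs, 13 in the same direction and 4 in opposite directions.

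**Figure D5:**
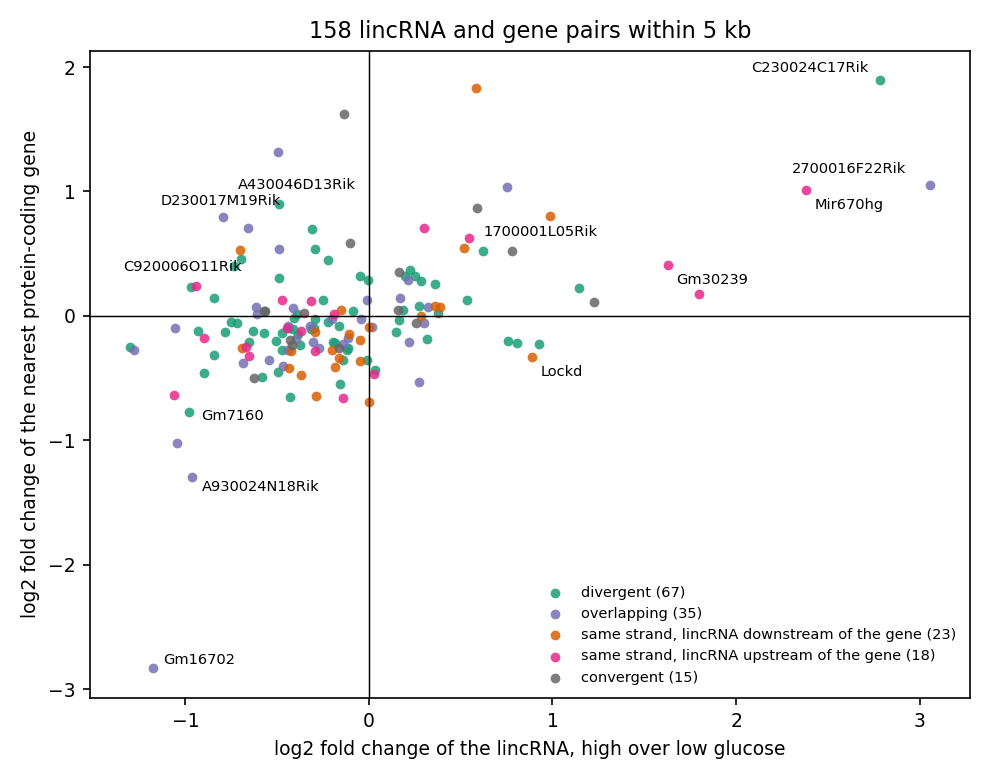
Log2 difference between high and low glucose of the nearest protein-coding gene (y axis) and of the lincRNA (x axis) for 158 pairs within 5 kb, coloured by their arrangement. Of the pairs, 111 lie in the quadrants of equal sign.

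Pairs in which both genes rose included several close ones. Mir670hg lies 2672 bases from Hsd17b12, an enzyme of very-long-chain fatty acid elongation in the ER, which rose 2.02-fold from 54.2 ± 4.10 to 109 ± 7.85 CPM (SD, n = 4 each). Gm30239 rose 3.09-fold, with 2.39 to 3.85 CPM in high and 0.852 to 1.34 CPM in low glucose, and lies 3158 bases from Ero1lb, the β-cell oxidase of ER disulfide formation, which rose 1.32-fold. 2810414N06Rik rose 1.54-fold and starts 353 bases from Edem3, a mannosidase-like protein of ER-associated degradation, which rose 1.44-fold. The 2810414N06Rik call was lost without replicate 1 of either group, with a highest adjusted p of 0.0559. 1700001L05Rik rose 1.46-fold and lies 3600 bases from Arfgap3, a GTPase activator for the Golgi coat regulator Arf1, which rose 1.55-fold. Here the lincRNA stood at 7.64 to 9.62 CPM in high and 5.25 to 6.25 CPM in low glucose. 4732496C06Rik rose 1.98-fold at 6281 bases from Nucb2, a calcium-binding protein of the Golgi and the precursor of nesfatin-1, which rose 3.56-fold. That lincRNA call was lost without both libraries numbered 2. The lincRNAs beside Ero1lb, Hsd17b12 and Ubr4 were named by rule, and the others of this paragraph after their values were seen.

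C230024C17Rik lies 2520 bases from Rgs16, a GTPase activator for G protein α subunits. Rgs16 stood at 86.0, 65.0, 90.7 and 68.2 CPM in high and 22.4, 20.5, 21 and 19.3 CPM in low glucose, a 3.72-fold increase, and replicates 2 and 4 were the lower ones in high glucose. Ubr4, a ubiquitin ligase that overlaps 2700016F22Rik, rose 2.07-fold. 6330403K07Rik rose 1.71-fold and Mis12, a kinetochore protein 4570 bases away, rose 1.44-fold. Gm7160 (chromosome 1, 105979350 to 105990282), which starts 124 bases from Zcchc2, fell 1.97-fold, and Zcchc2 fell 1.70-fold. Gm7160 stood at 5.73, 6.03, 5.70 and 5.94 CPM in high and 12.4, 13.6, 12.0 and 8.35 CPM in low glucose, with low glucose replicate 4 nearest to the other group.

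Over 20 kb, both genes were called in 16 pairs, 12 in the same direction and 4 in opposite directions. Gm17767 fell 1.73-fold with Nabp1, a single-stranded DNA-binding protein 28661 bases away, which fell 1.75-fold. 1810008I18Rik fell 1.48-fold and lies 55285 bases from Pcsk6, a proprotein convertase, which fell 2.54-fold. Gm45847 lies 28858 bases from Rbbp6, which fell 1.31-fold. In the opposite direction, 2610035D17Rik fell while Slc39a11, a zinc transporter gene 43015 bases away, rose 1.98-fold, and E130102H24Rik fell while Ak4 rose, as given above.

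In 4 of the pairs within 5 kb the directions were opposite. Lockd rose 1.85-fold and lies 3579 bases downstream of Cdkn1b, the cyclin-dependent kinase inhibitor p27, which fell 1.26-fold. D230017M19Rik fell 1.73-fold while Pecr, a peroxisomal enoyl-CoA reductase it overlaps, rose 1.73-fold. C920006O11Rik fell 1.63-fold while the ciliary kinase gene Ick rose 1.44-fold. A430046D13Rik fell 1.40-fold while Myl6b, a myosin light chain, rose 1.87-fold. The Lockd call was lost in 7 and the A430046D13Rik call in 11 of 15 alternative fits. These 4 and the pairs with Mis12, Nabp1 and Pcsk6 were chosen after their values were seen.

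Several listed regulators of the pancreas and islet have a lincRNA of this set as neighbour. A930024N18Rik overlaps Dll1, a Notch ligand, on the opposite strand and fell 1.95-fold (1.11 to 1.92 CPM in high, 1.92 to 4.02 CPM in low glucose). Dll1 fell 2.45-fold, 21.9% of the exon bases of A930024N18Rik are shared with it, and the A930024N18Rik call was lost in 6 of 15 alternative fits.

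4632428C04Rik (chromosome 16, 30008667 to 30021430), upstream of the Notch target Hes1, stood at 9.24, 8.21, 10.6 and 8.13 CPM in high and 18, 18, 16.3 and 15.5 CPM in low glucose. It fell 1.88-fold with wide separation of the groups (edgeR adjusted p = 0.000295), while Hes1, 42954 bases away, had means of 21.3 and 23.7 CPM (edgeR adjusted p = 0.477). Gm27033, downstream of Pdx1, the transcription factor of β-cell identity, stood at 18.2 to 27.3 CPM in high and 14.3 to 20.1 CPM in low glucose. Its edgeR adjusted p was 0.0935, and 0.0102 with the replicate block (0.0102 to 0.235 over the alternative fits). Pdx1 had means of 219 and 209 CPM (edgeR adjusted p = 0.611). Paupar, which starts 7557 bases from Pax6, stood at 5.73 to 6.63 CPM in high and 6.16 to 8.64 CPM in low glucose (edgeR adjusted p = 0.212). Pax6, a regulator of islet hormone genes, had means of 300 and 357 CPM (edgeR adjusted p = 0.0663, and 0.0135 with the replicate block). The neighbours of Foxa2, Lhx1 and Nkx6-1, namely 9030622O22Rik, Lhx1os and 9430085M18Rik, were not called (edgeR adjusted p = 0.749, 0.415 and 0.379). Apart from Gm27033, these neighbours were chosen after their values were seen.

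RefSeq promoters (GRCm38.p6, 250 bases before to 50 after the start) were matched by symbol for 158 lincRNAs, and for 105 of them the start lay within 100 bases of that in the deposited table. The E-box CACGTG, on either strand, was present in 3 of 11 promoters of higher, 4 of 21 of lower and 7 of 73 of uncalled lincRNAs. It was in 13.3% of the 105 and in 7.17% of all 32544 promoters. The cyclic AMP response element TGACGTCA was in 6.67% of the 105 and 1.80% of all promoters, in none of the higher and 1 of the lower ones. The letters TGACGTGG of an XBP1 element and TGATGCAA of an ATF4 element were each in 1 promoter of the 105, and GCGTGGGCG of EGR factors was in none. The letters ACGT are common to CACGTG, TGACGTCA and TGACGTGG. Median GC content was 55.3% in the 105 promoters and 53.0% in all. A match is a description of letters, and no binding was measured.

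The promoters of 3 called lincRNAs that moved with the nearest coding gene and hold such letters are shown, with the E-box or, in 1810008I18Rik, the ATF4 letters and the E-box in capitals.
C230024C17Rik (chr1:153737780-153738079, minus strand): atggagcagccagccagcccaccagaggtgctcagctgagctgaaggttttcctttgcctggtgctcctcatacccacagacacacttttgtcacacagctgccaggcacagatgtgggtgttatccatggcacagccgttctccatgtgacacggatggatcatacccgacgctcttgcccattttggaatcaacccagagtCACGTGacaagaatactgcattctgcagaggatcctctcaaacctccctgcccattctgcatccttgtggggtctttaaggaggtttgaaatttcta
1700001L05Rik (chr15:83367248-83367547, minus strand): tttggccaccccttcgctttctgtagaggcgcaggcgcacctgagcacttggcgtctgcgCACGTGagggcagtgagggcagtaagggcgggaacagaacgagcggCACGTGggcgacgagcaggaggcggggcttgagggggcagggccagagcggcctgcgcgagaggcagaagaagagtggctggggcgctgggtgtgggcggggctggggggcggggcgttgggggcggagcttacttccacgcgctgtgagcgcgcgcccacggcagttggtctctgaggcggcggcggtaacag
1810008I18Rik (chr7:65802787-65803086, plus strand): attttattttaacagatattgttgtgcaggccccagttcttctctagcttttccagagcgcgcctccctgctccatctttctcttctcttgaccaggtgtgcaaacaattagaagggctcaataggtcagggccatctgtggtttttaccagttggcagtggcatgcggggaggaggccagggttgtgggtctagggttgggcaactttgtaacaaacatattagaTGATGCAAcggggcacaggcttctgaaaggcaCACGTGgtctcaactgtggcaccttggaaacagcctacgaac
The E-box of C230024C17Rik lies 47 bases before the RefSeq start, those of 1700001L05Rik 190 and 144 bases before it. GC content was 52.0%, 70.3% and 50% in these 3 windows.

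Many of these genes overlap others. Of the 297, 95 overlap another gene of the table, and of these 4 rose and 17 fell (22.1% called). Among the 202 that overlap none, 30 rose and 28 fell (28.7% called). Both shares are near the 25.0% of all genes, and their difference was not tested. In 61 the exons themselves share bases with another gene, and 12 of those were called, beside the same 25.0% of all genes. Of 48 lincRNAs with a single exon block, 1 rose and 7 fell (16.7% called, beside 25.0%). The 12 with a near-identical copy elsewhere, Meg3, 2900097C17Rik and Gm10076 among them, held no call. In GENCODE M21, 288 of the 297 are still listed as lincRNA. The authors' deposited table, with its own adjusted p under 0.05, has 35 of these lincRNAs higher and 51 lower.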

How the data were processed

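Bulk RNA-seq was available for 8 libraries of cultured mouse islets. Per the labels' protocols, RNA was taken with the RNeasy micro kit and libraries were made with a NEBNext Ultra kit. The submitters' processing notes name STAR 2.5, HTSeq 2, DESeq2 and mm10 (GRCm38). For the strand setting and the annotation release, the sources used here give nothing. Per the file headers, the deposited table holds whole-number read counts per gene, a signal that equals the count divided by a size factor per library, FPKM, and the authors' log2 fold change and p-value columns. The counts were tested. FPKM served for levels per length, and the authors' comparison only for a count of calls.

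The test across genes was that of edgeR 4.0.16, run under R 4.3.3 (TMM scaling, filterByExpr with a minimum count of 10 and total of 15, quasi-likelihood test, Benjamini-Hochberg adjustment over all genes tested, threshold 0.05). CPM values use TMM-scaled library sizes. The scripts were tested on simulated data. Alternatives were library size alone, DESeq2 1.42.0, limma-voom (limma 3.58.1), no filter, a replicate block, each library left out, other read thresholds and overlap rules, and 2 fits added after the data were seen (without both libraries numbered 2, and with the acinar marker sum as a covariate). Same-numbered high and low glucose libraries deviated from their group means with correlations of 0.103, 0.503, 0.457 and 0.528. Unlike-numbered ones ran from −0.369 to 0.249. The highest of these, high glucose replicate 4 with low glucose replicate 1, exceeded the value of the libraries numbered 1. On this ground, weak for number 1, the numbers, which come from the sample titles, were taken to pair the libraries. The main calls come from the fit without the replicate block, and results with it are given beside them.

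Overlaps, neighbours and small RNAs inside a span came from GENCODE M21, near-identical copies from BLAST 2.17.0 (at least 95% identity over at least 50% of the length), and sequences from RefSeq. Named genes are a panel of known lincRNAs, the 10 largest increases and 10 largest decreases with groups that do not overlap and at least 1 CPM in a group, the 8 with the highest FPKM, those at the read threshold, the 6 neighbour pairs within 5 kb with the smallest adjusted p of the lincRNA, and up to 4 called genes per list. Others are said to be chosen after their values were seen. The members and lists were chosen with earlier results of these data known. Some genes of the lists are not reported here.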

Additional observations from a re-analysis of the deposited data

Results flagged for a closer look

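In groups of 4 libraries, a value was singled out where its gap to the nearest other library took more of the range of the group than Dixon's 95% critical value for 4 samples. Over 148 groups of named lincRNAs this held for 10, and chance gives about 1 in 20. In high glucose, replicate 2 was above the other 3 libraries for Fam120aos (45.2 CPM against 37.9 to 38.1), Gm16702 (0.832 against 0.471 to 0.485) and Lockd (2.29 against 1.93 to 1.97). Gm5860 was low in replicate 1 of that group (10.1 CPM against 14.8 to 15.6), and Gm26614 was low in replicate 4 (0.485 against 1.11 to 1.14). In low glucose, replicate 2 was high for Gm10076 (111.0 CPM against 72.6 to 78.7) and Gm30239 (1.34 against 0.852 to 0.872). Replicate 1 was low for CT025659.2 (0.417 CPM against 1.20 to 1.23) and high for Gm31992 (1.44 against 1.01 to 1.04). Replicate 3 was high for Gm45218 (2.23 CPM against 1.55 to 1.61).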

How the results depend on the processing

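None of the 79 called lincRNAs changed sign in the 15 alternative fits. With a mean of at least 100 reads, 8 lincRNAs were higher and 22 lower, against 34 and 45. Among lincRNAs that overlap no other gene, 28 were lower. Leaving out libraries gave 24 to 38 higher and 31 to 54 lower. The highest counts came without low glucose replicate 2, where all genes gave 2656 higher and 2476 lower, against 2023 and 1831 with all libraries. Any other single library left out gave fewer calls than the main fit in both directions. The same-sign share of neighbour pairs was 70.3%, and 71.5% without overlapping pairs. DESeq2 called 38 higher and 52 lower, limma-voom 36 and 43, and no filter 29 and 39.

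With the replicate block, 45 lincRNAs were higher and 57 lower. Of the 79 calls 2 were lost, AC173344.1 and C820005J03Rik, and 25 of 218 others were gained. Over all genes the block gave 2917 higher and 2862 lower, against 2023 and 1831. Among named lincRNAs it changed the calls of Snhg6, Jpx and Gm27033, whose values are given above, of Gm42047 (adjusted p 0.0227 with the block, 0.312 without) and of C820005J03Rik (0.0527 with, 0.0410 without), and it changed no other call.

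Over all alternatives, 1014 values of named lincRNAs kept direction and side of the threshold, 78 were weaker and 18 stronger. Of the 297 lincRNAs, 141 had a mean under 50 reads, and for those a call missed at this depth does not show that the groups were alike.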
